A study of Mus musculus with 6 samples.

Results

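The 10 genes described here encode transcription factors of pancreatic acinar cells, the exocrine cells that make and secrete digestive enzymes. They are Ptf1a, Rbpjl, Bhlha15, Nr5a2, Nr0b2, Gata4, Gata6, Foxp2, Xbp1 and Creb3l2, taken as a fixed list. Each is represented by the row of the deposited table that the platform annotation assigns to that symbol alone. All 10 of the 10 listed genes had such a row, with 1 row each, among 20259 genes in all.

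RNA was measured on 6 expression arrays, 1 per sample, from mouse pancreas cells sorted for GFP. The knockout group was KCiMist1G; p120f/f and the wild-type group KCiMist1G; p120wt/wt, with 3 arrays each, labelled as biological replicates. Both groups therefore carry the KCiMist1G background of a preinvasive pancreatic cancer model, and both received tamoxifen at 7 to 9 weeks of age to switch on Cre, with cells sorted 2 weeks later. p120 catenin, encoded by Ctnnd1, stabilises classical cadherins at adherens junctions, and the series set the transcriptome of this model without it against the same model with it.

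The name KCiMist1G contains Mist1, a synonym of Bhlha15, which is 1 of the 10 genes. The labels do not spell out the alleles behind the name, so whether a Bhlha15 allele is altered in these mice is not given in the sources used here; any such change would be shared by both groups. Pooling of animals is not stated in the labels, and the p-values therefore rest on the variation among samples as they were labelled. Sorting for GFP was the only selection the labels give, and in bulk RNA fewer cells of a type and less RNA per cell cannot be told apart.

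Acinar cells are held in their mature state by a small network of factors. PTF1, a complex of the bHLH protein PTF1A, an E-protein partner and RBPJ or its pancreas-restricted paralog RBPJL, binds and activates the digestive enzyme genes. BHLHA15 (MIST1) shapes the regulated secretory apparatus, NR5A2 acts beside PTF1 on enzyme genes, and XBP1 and CREB3L2 drive genes of the endoplasmic reticulum and secretory pathway. In mouse pancreas, loss of several of these factors lets acinar cells move toward a duct-like state.

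PTF1 recognises an E-box beside an RBPJ box, so the promoters of the PTF1 and MIST1 genes are shown first, with those motifs in capitals. The sequences are from RefSeq (GRCm38.p6), 250 bases before to 50 bases after the start, read 5′ to 3′ on the strand of the gene. The E-box was searched as CANNTG and the RBPJ box as TGGGAA, on both strands.
Ptf1a, chr2:19445413-19445712, plus strand: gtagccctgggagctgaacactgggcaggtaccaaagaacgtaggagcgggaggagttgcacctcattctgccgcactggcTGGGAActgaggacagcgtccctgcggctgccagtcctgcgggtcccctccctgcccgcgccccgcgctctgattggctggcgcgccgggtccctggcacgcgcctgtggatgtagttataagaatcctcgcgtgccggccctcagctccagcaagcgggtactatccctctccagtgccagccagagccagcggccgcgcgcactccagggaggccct
Rbpjl, chr2:164402944-164403243, plus strand: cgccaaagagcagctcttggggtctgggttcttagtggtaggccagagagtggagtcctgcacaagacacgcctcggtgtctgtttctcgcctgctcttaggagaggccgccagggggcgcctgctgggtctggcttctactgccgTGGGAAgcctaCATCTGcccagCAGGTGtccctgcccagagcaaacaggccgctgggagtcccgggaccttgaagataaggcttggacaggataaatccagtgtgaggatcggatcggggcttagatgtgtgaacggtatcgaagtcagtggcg
Bhlha15, chr5:144190036-144190335, plus strand: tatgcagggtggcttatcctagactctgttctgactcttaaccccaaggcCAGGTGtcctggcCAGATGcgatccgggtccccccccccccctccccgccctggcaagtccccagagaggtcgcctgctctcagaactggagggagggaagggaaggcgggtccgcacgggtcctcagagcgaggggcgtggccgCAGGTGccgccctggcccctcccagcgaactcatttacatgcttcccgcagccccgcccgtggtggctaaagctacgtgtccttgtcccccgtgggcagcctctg
The Rbpjl window held 1 RBPJ box, which begins 104 bases upstream of the start, and 2 E-boxes, whose first bases lie 11 and 22 bases further on. Ptf1a had 1 RBPJ box and 0 E-boxes in its window, and Bhlha15 had 3 E-boxes and 0 RBPJ boxes. A window was available for 7 of the 10 genes, and there were 8 windows because Nr5a2 had 2. Of the 8 windows, 6 held an E-box and 4 an RBPJ box. In all 32851 windows of this length, 72.3% held the E-box letters and 25.6% the RBPJ box letters. A match describes letters only. In the Xbp1 window, which is not printed, 1 E-box overlaps an RBPJ box.

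The promoter of Nr0b2 is shown because the NR0B2 protein represses NR5A2, and because NR5A2 is known to activate Nr0b2. Its NR5A motifs, searched as TCAAGG on both strands, are in capitals.
Nr0b2, chr4:133553126-133553425, plus strand: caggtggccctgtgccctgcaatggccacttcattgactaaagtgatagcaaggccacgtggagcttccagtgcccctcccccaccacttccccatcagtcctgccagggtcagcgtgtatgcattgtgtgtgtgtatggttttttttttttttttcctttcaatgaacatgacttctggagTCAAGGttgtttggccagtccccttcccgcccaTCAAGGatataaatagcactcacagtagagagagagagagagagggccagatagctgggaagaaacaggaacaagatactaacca
The window held 2 such motifs, beginning 68 and 35 bases upstream of the start. The Rbpjl window held 1 on the opposite strand, and 14.4% of all windows held the letters. The GATA letters NGATAA were found in 4 of the 8 windows, against 25.3% of all windows. These were both windows of Nr5a2 and those of Rbpjl and Bhlha15, and 1 of the Rbpjl matches begins 31 bases upstream of the start.

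Before any gene was compared, knockout array 1 and knockout arrays 2 and 3 lay on opposite sides of the wild-type arrays. On the first principal component, which held 50.7% of the variance over all genes, knockout array 1 scored -37.8. Knockout arrays 2 and 3 scored 27.8 and 36.1, and the wild-type arrays between -14.1 and -3.75. The targeted gene, Ctnnd1, had log2 values of 5.61, 6.61 and 6.38 on the knockout arrays, against 5.87, 6.81 and 6.44 on the wild-type arrays. The groups overlapped for this gene (-0.17, SE 0.32, limma adjusted p = 0.922), and which part of the transcript the row reads is not given. Loss of p120 was thus not visible in these values, and knockout means the label throughout.

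None of the 10 acinar factors differed between the groups at limma's adjusted threshold of 0.05, with adjusted p-values from 0.907 to 0.995. At that threshold 0% of all genes were called. Before adjustment, 0 of the 10 factors and 3.49% of all genes had a p under 0.05. The mean was higher in knockout for 6 factors and lower for 4, with a median difference of 0.03 log2 units, and over all genes the median was 0.055 and 61.7% were higher in knockout. In none of the factors did the groups fail to overlap, which 8.69% of all genes did in either direction. The differences ran from -0.28 for Nr0b2 to 0.18 for Xbp1.

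The small mean differences covered a wide spread inside the knockout group. Knockout array 1 had the lowest value of all 6 arrays for 8 of the 10 factors, and knockout arrays 2 and 3 both lay above every wild-type array for 8. Both held for 7 factors, Ptf1a, Rbpjl, Bhlha15, Nr5a2, Gata4, Gata6 and Foxp2. Over all genes these shares were 29.5% for the lowest value, 34.2% for arrays 2 and 3 above wild type and 15.4% for both together. The SD over the knockout arrays exceeded that over the wild-type arrays for 9 of the 10 factors and for 70.2% of all genes.

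**Figure D1:**
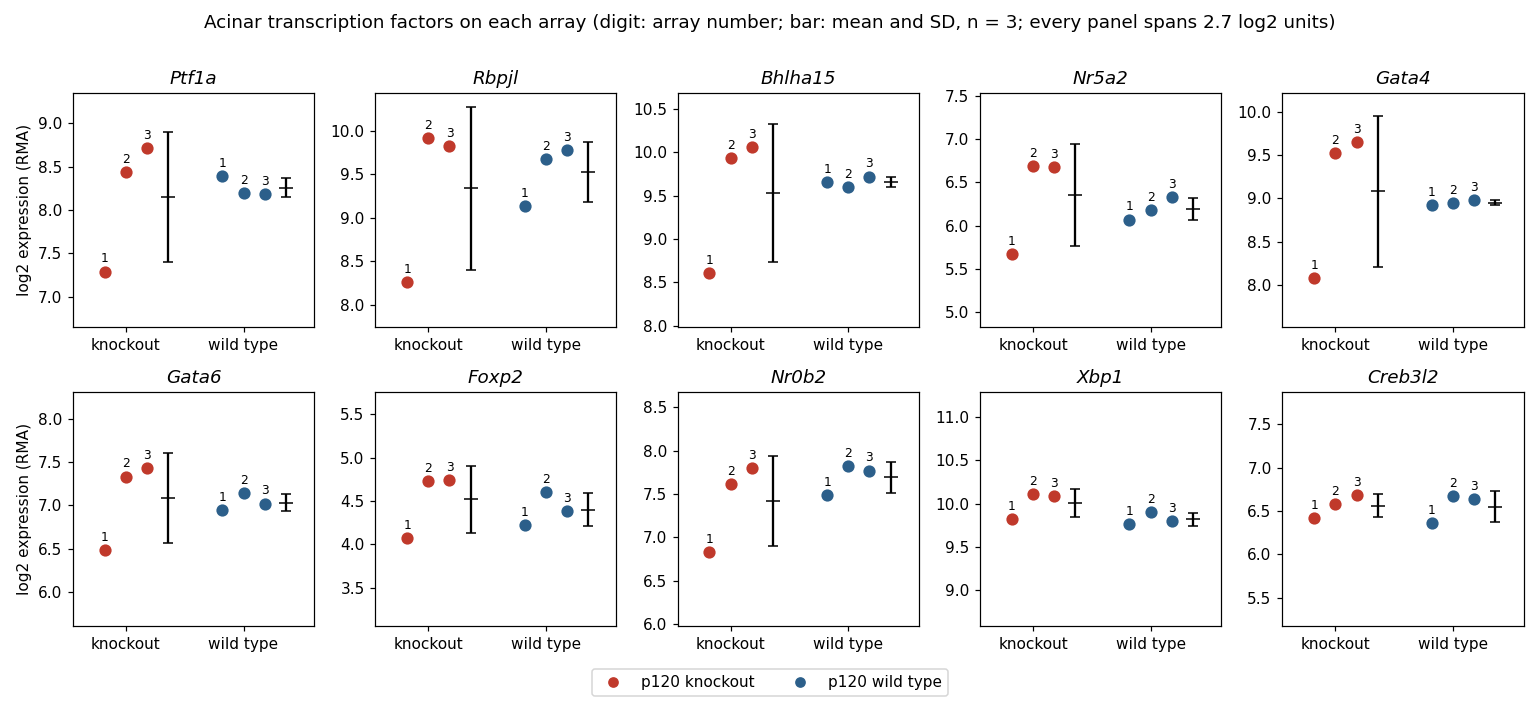
Log2 expression of each of the 10 factors on every array, with knockout arrays in red on the left and wild-type arrays in blue on the right; digits are array numbers and black bars are the mean and SD (n = 3 per group), on panels of equal height. Knockout array 1 lies at the bottom and knockout arrays 2 and 3 lie at the top for 7 factors, while Xbp1 and Creb3l2 vary little.

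Ptf1a, the bHLH subunit that gives the complex its pancreatic specificity, had log2 values of 7.29, 8.44 and 8.71 on knockout arrays 1 to 3, against 8.39, 8.20 and 8.18 on the wild-type arrays. The first knockout array lay 0.89 below the lowest wild-type array, and the other two lay above all of them, the nearer by 0.05. Knockout averaged 8.15 ± 0.753 and wild type 8.26 ± 0.114 (SD, n = 3 each), a difference of -0.11 (SE 0.34, limma adjusted p = 0.952).

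Rbpjl, which replaces RBPJ in the PTF1 complex as acinar cells mature, had values of 8.26, 9.92 and 9.83 on the knockout arrays, against 9.14, 9.68 and 9.78 on the wild-type arrays. Rbpjl had the widest range of the 10 factors over the knockout arrays, 1.67 log2 units, and also the widest over the wild-type arrays, 0.64. Wild-type array 1 was the low one there. The difference was -0.19 (SE 0.44), and its 95% confidence interval corresponds to a fold of 0.43 to 1.78 (limma adjusted p = 0.936).

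Bhlha15, which encodes MIST1, had values of 8.61, 9.93 and 10.06 in knockout, against 9.66, 9.60 and 9.72 in wild type. The wild-type arrays spanned 0.12 log2 units and the knockout arrays 1.44. Its difference of -0.13 (SE 0.36, limma adjusted p = 0.948) was smaller than the gap of 0.99 between knockout array 1 and the lowest wild-type array.

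Nr5a2, a nuclear receptor also known as LRH-1, had values of 5.67, 6.69 and 6.68 on the knockout arrays, against 6.07, 6.18 and 6.33 on the wild-type arrays. Knockout arrays 2 and 3 differed from each other by 0.01 and exceeded the highest wild-type array by at least 0.35. With array 1 included, knockout averaged 6.35 ± 0.589 and wild type 6.19 ± 0.13 (SD, n = 3 each), which differ by 0.15 (SE 0.28, limma adjusted p = 0.92).

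Nr0b2, which encodes SHP, a nuclear receptor without a DNA-binding domain that represses NR5A2, had 6.83, 7.61 and 7.80 in knockout, against 7.49, 7.82 and 7.77 in wild type. Unlike Nr5a2, its knockout arrays 2 and 3 lay inside the range of the wild-type arrays. With -0.28 (SE 0.25, 95% confidence interval -0.87 to 0.32, limma adjusted p = 0.907), it had the most negative difference of the 10. Binding to the motifs printed above was not measured.

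The zinc finger genes Gata4 and Gata6 are needed together to form the pancreas, and Gata6 also for mature acinar cells. Gata4 had 8.08, 9.52 and 9.65 on the knockout arrays, against 8.92, 8.95 and 8.98 on the wild-type arrays. The wild-type values were the tightest of any factor (SD 0.0309, n = 3), with knockout array 1 at 0.83 below them and arrays 2 and 3 at least 0.55 above. Gata6 had 6.48, 7.33 and 7.43 in knockout, against 6.94, 7.14 and 7.02 in wild type, in the same arrangement with smaller gaps of 0.46 and 0.19. The differences over all arrays were 0.14 (SE 0.38, adjusted p = 0.948) for Gata4 and 0.05 (SE 0.25, adjusted p = 0.971) for Gata6 by limma.

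Foxp2, a forkhead factor, lay below the median gene level of 5.43 on every array, with 4.07, 4.73 and 4.74 in knockout, against 4.22, 4.60 and 4.38 in wild type. Its difference was 0.11 (SE 0.21, limma adjusted p = 0.923).

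The 2 factors of the endoplasmic reticulum varied least over the knockout arrays, by 0.29 log2 units for Xbp1 and 0.27 for Creb3l2. Xbp1, the bZIP factor that the unfolded protein sensor IRE1 activates by splicing its mRNA, had 9.82, 10.11 and 10.09 in knockout, against 9.76, 9.90 and 9.80 in wild type. Knockout array 1 fell between the wild-type arrays, so the groups overlapped only through that array. The difference was 0.18 (SE 0.13, 95% confidence interval -0.12 to 0.48, limma adjusted p = 0.907), with an exact two-sided permutation p of 0.2, where 0.1 is the smallest that 3 against 3 arrays can give. The table holds 1 row for the gene and does not separate the spliced from the unspliced mRNA.

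Creb3l2, an endoplasmic reticulum membrane factor released by proteolysis, had 6.42, 6.58 and 6.68 in knockout, against 6.36, 6.67 and 6.64 in wild type. Knockout and wild type differed by 0.01 (SE 0.14, 95% confidence interval -0.32 to 0.33, limma adjusted p = 0.995). Wild-type array 1 was the lowest wild-type array for this gene, as for 8 of the 10 factors and for 28.8% of all genes.

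Knockout array 1 was lowest of all for 8 of the 10 factors, so leaving it out had to raise their knockout means. Counts without it, here and for the lists below, are a description. Leaving it out changed the direction of 4 factors. All 10 were then higher in knockout, against 65.3% of all genes, with a median difference of 0.34 (0.11 over all genes). Of the 10, 7 had an unadjusted p under 0.05, against 18.5% of all genes in that direction, and 0 passed limma's adjusted threshold, against 0.00987% of all genes. Gata4 was nearest to it at 0.64 (SE 0.10, limma adjusted p = 0.0524), followed by Nr5a2 at 0.49 (SE 0.11, adjusted p = 0.0698). Ptf1a was then at 0.32, Rbpjl at 0.35, Bhlha15 at 0.33 and Nr0b2 at 0.01, all negative with 6 arrays. With weights per array, 3 of the 10 passed the adjusted threshold, all higher (Gata4, Nr5a2 and Xbp1), against 23.7% of all genes. The weighting did not converge, so that count is not reliable. It put the most weight on knockout array 2 (8.57) and the least on knockout array 1 (0.142). Without knockout array 2 the median was -0.08 and 2 factors were higher, and without knockout array 3 it was -0.14 and 1 was higher.

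Leukocyte markers were ordered in the opposite sense over the knockout arrays. The mean log2 value over 30 measured leukocyte genes was 8.42 on knockout array 1 and 7.28 and 7.34 on knockout arrays 2 and 3, against 8.0 to 8.13 on the wild-type arrays. Of the 30 genes, 15 were highest of all on knockout array 1, against 3564 of all 20259 genes. On knockout arrays 2 and 3, 27 were lower than on every wild-type array, against 16.8% of all genes. Of the list, 0 genes passed limma's adjusted threshold with all arrays. At an unadjusted p under 0.05, 2 were lower and 0 higher in knockout, against 241 and 467 of all 20259 genes. Without knockout array 1, 24 of the 30 were lower at that level, against 10.8% of all genes. The median of the list was then -0.73 (-0.36 with all arrays), and 1 gene, the B cell surface protein gene Cd72, passed the adjusted threshold (-1.47, limma adjusted p = 0.0318), named after its value was seen. With all arrays the T cell receptor subunit genes Cd3g and Cd3d differed by -0.72 and -0.37, and Cd3e and Cd4 by -0.53 and -0.47 (limma adjusted p = 0.907 for each). Each of these genes was higher on a wild-type array than on knockout array 1, and Cd3d was lowest of all there, at 5.49.

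With the leukocyte mean as a covariate, 9 of the 10 factors were lower in knockout, Xbp1 being the exception, and 46.7% of all genes were lower. At an unadjusted p under 0.05 the count was 5 lower, Ptf1a, Rbpjl, Bhlha15, Gata4 and Nr0b2, against 2.93% of all genes, and 0 passed the adjusted threshold, against 0% of all genes. Bhlha15 was at -0.60 (SE 0.11, limma adjusted p = 0.459), Rbpjl at -0.76 (SE 0.20, adjusted p = 0.614) and Ptf1a at -0.55 (SE 0.15, adjusted p = 0.629). The leukocyte mean varied by far more among the knockout arrays than among the wild-type arrays, so the slope rests on the knockout group. The direction of the acinar factors thus depended on how the knockout arrays were treated, and the part of leukocyte RNA in the result was not tested further.

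**Figure D2:**
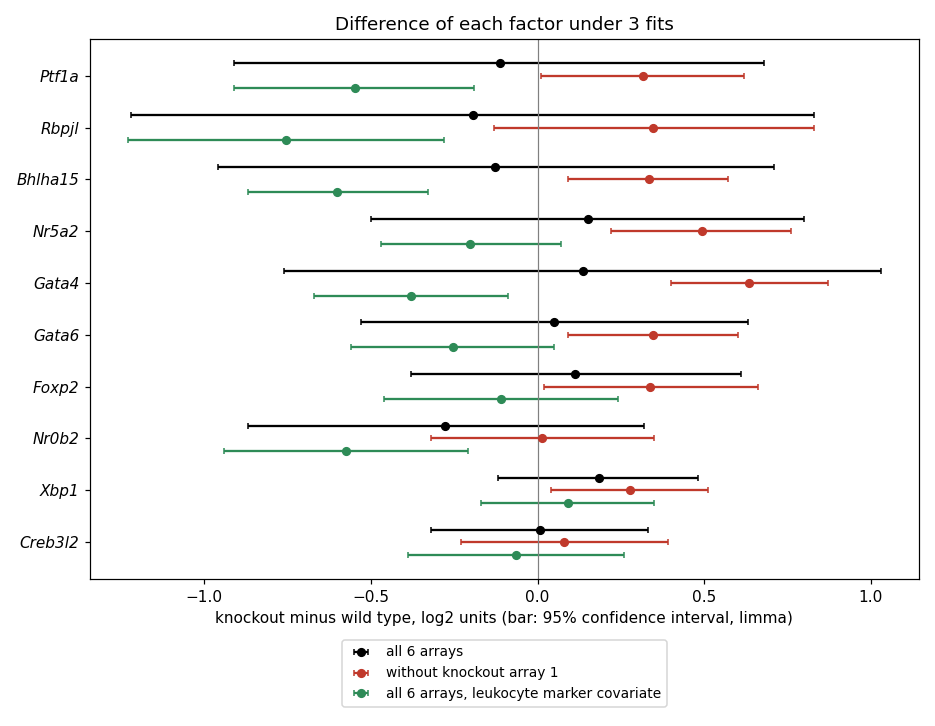
Knockout minus wild-type difference of each factor in log2 units with its 95% confidence interval from limma, for all 6 arrays (black), without knockout array 1 (red) and with the leukocyte marker mean as a covariate (green). For Ptf1a the values are -0.11, 0.32 and -0.55, and 0 factors pass the adjusted threshold in any of the 3 fits. The array left out for the red fit was the lowest for 8 factors, which raises their differences.

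The partners of the bHLH factors were arranged differently over the arrays. Of 8 measured genes for E-proteins, RBPJ and their ID inhibitors, 1 was lowest on knockout array 1, against 29.5% of all genes. On that array 3 were highest, against 3564 of all 20259 genes. The median gap of arrays 2 and 3 over array 1 was -0.17, against 0.96 for the 10 factors and 0.15 for all genes. Rbpj, the ubiquitous paralog of Rbpjl and the Notch effector, had 8.89, 8.40 and 8.55 in knockout, against 8.74, 9.34 and 8.79 in wild type, a difference of -0.34 (limma adjusted p = 0.907). Tcf12, an E-protein, had 7.15, 6.09 and 5.99 in knockout, against 6.74, 6.48 and 6.82 in wild type, so it was high where Ptf1a was low. Tcf12 differed by -0.27, and Id1 and Id2, inhibitors of bHLH dimers, were at 0.25 and 0.09. In this list 0 genes were called at the adjusted threshold or at an unadjusted p under 0.05. Without knockout array 1, Tcf12 was at -0.64 and Rbpj at -0.48, both lower at an unadjusted p under 0.05, against 10.8% of all genes in that direction. Leaving out the other arrays put Tcf12 as near to 0 as -0.06 (knockout array 3), Rbpj as near as -0.15 (wild-type array 2) and Id1 as near as 0.07 (wild-type array 1).

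Genes for digestive enzymes and related secreted proteins were also mostly lowest on knockout array 1. Of 17 measured digestive enzyme and related secreted genes (28 listed), 15 were lowest there, against 29.5% of all genes, and the median gap of arrays 2 and 3 over it was 0.53. Dnase1 was an exception, with 3.86, 3.78 and 3.70 in knockout, against 3.66, 3.70 and 3.66 in wild type. Its row is dim, below the median gene level of 5.43 on every array. Between the groups 7 were higher and 10 lower, the median difference was -0.01, and 0 passed at either threshold. Pla2g1b, the secreted phospholipase, had 11.46, 11.96 and 12.20 in knockout, against 11.77, 11.61 and 11.74 in wild type. It differed by 0.17, with a range of 0.005 to 0.37 when single knockout arrays were left out. Ctrl, a chymotrypsin-like protease, differed by -0.09 (0.11 without knockout array 1), Reg1, a secreted lectin, by 0.06 (0.13 without it) and Dnase1 by 0.11 (0.07 without it). Without that array all 17 enzyme genes were higher in knockout, against 65.3% of all genes. At an unadjusted p under 0.05, 2 of them were higher, against 18.5% of all genes.

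Among 17 measured MIST1 target and zymogen granule genes (19 listed), 15 were lowest on knockout array 1 and 12 lay above all wild-type arrays on knockout arrays 2 and 3, against 29.5% and 34.2% of all genes. The median gap was 0.50, the median difference between groups was 0.01 with 10 higher and 7 lower, and 0 passed at either threshold. Pdia2, a pancreatic protein disulfide isomerase, had 10.31, 11.29 and 11.19 in knockout, against 11.00, 11.42 and 11.37 in wild type. Its difference was -0.33 (SE 0.27, limma adjusted p = 0.907), and -0.02 without knockout array 1. Atp2c2, a Golgi calcium pump, was at 0.14 and without that array at 0.26, Syt1 at 0.10 and 0.16, and Tpd52, which was highest on that array, at 0.07 and -0.09. Without knockout array 1, 14 of the 17 granule genes were higher, against 65.3% of all genes. At an unadjusted p under 0.05, 7 of them were higher, against 18.5% of all genes. Of the 17, 0 passed the adjusted threshold, against 0.00987% of all genes.

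Genes of the endoplasmic reticulum and secretory pathway, with targets of XBP1 and the sensors above it, were counted next. Of 29 measured (30 listed), 8 were higher and 21 lower in knockout, with a median difference of -0.08, while 61.7% of all genes were higher. Of the list, 22 were lowest on knockout array 1, against 29.5% of all genes. The adjusted threshold was passed by 0 of the 29, against 0% of all genes. At an unadjusted p under 0.05 the count was 1 of 29, lower, a share close to the 3.49% of all genes in either direction. That gene was Ern1, which encodes the IRE1 sensor that splices Xbp1 mRNA, with 8.57, 8.63 and 8.65 in knockout, against 8.67, 9.19 and 9.15 in wild type. The difference of -0.39 (SE 0.16, limma adjusted p = 0.907) came with groups that did not overlap, as for 4 of the 29 genes and 8.69% of all genes. Sec23b, a COPII coat subunit, differed by -0.27, Syvn1, a ubiquitin ligase of the endoplasmic reticulum, by -0.24 and Ssr1, a translocon subunit, by -0.24. Without knockout array 1 the median of the list was 0.02 (0.11 over all genes), with 18 of 29 higher, against 65.3% of all genes.

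Other transcription factors of the pancreatic epithelium were set beside the 10. Of 20 measured (23 listed), 12 were lowest on knockout array 1 and 14 were higher in knockout, against 29.5% and 61.7% of all genes. The median difference was 0.12. At an unadjusted p under 0.05 the count was 2, both lower, against 241 lower of all 20259 genes. The adjusted threshold was passed by 0, against 0% of all genes. Prox1, a homeodomain factor of early pancreas and of lymphatic endothelium, had 4.57, 6.47 and 6.77 in knockout, against 7.02, 8.05 and 7.43 in wild type. All its knockout arrays lay below all wild-type arrays, as for 2 of the 20 genes, while 8.69% of all genes did not overlap in either direction. Prox1 differed by -1.56 (SE 0.56, limma adjusted p = 0.907), and by -0.88 without knockout array 1. Klf4, also an immediate early gene, had 9.49, 8.99 and 8.86 in knockout, against 9.75, 10.42 and 9.58 in wild type, a difference of -0.81 (SE 0.26, adjusted p = 0.907 by limma).

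The forkhead genes Foxa3 and Foxa1, pioneer factors of gut endoderm, were high on knockout arrays 2 and 3, as the acinar factors were. Foxa3 had 8.17, 9.23 and 9.29 in knockout, against 8.47, 8.40 and 8.25 in wild type, and its first knockout array was close to the lowest wild-type array. Its difference was 0.52 (SE 0.29) and that of Foxa1 0.31 (SE 0.16), with a limma adjusted p of 0.907 for both. Without knockout array 1 these were 0.88 (limma adjusted p = 0.0509) and 0.47 (adjusted p = 0.0606), and 9 of the 20 other factors were higher and 2 lower at an unadjusted p under 0.05, against 18.5% and 10.8% of all genes. Of those 20, 0 passed the adjusted threshold.

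**Figure D3:**
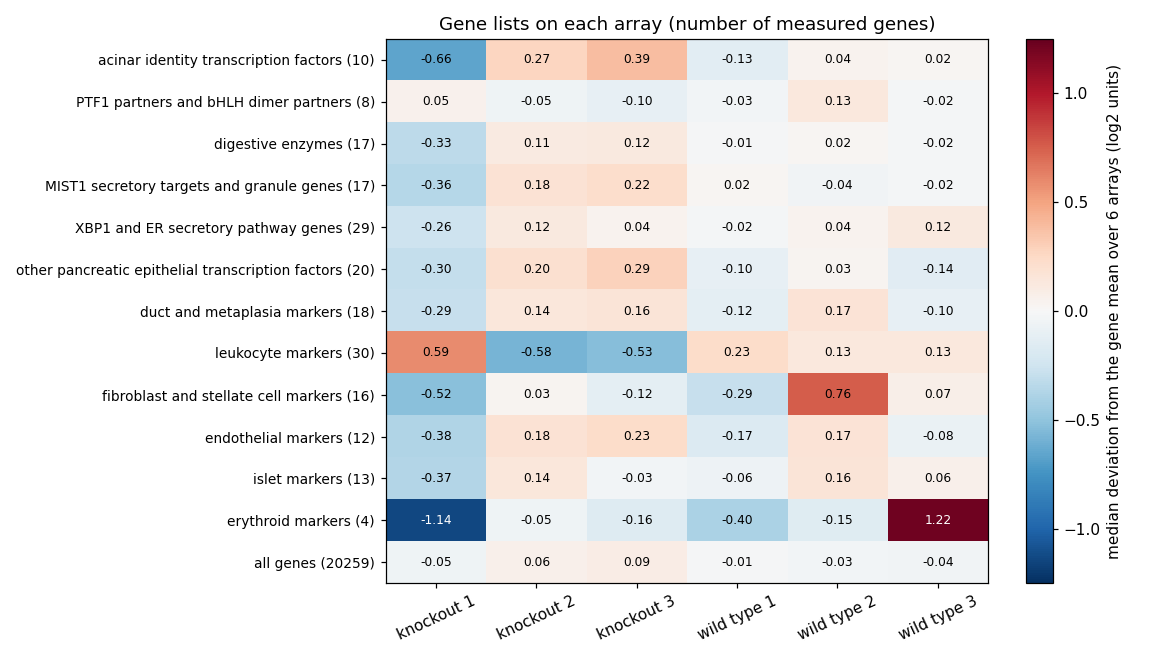
Median deviation of the genes of each list from their own mean over the 6 arrays, in log2 units, with arrays in columns (knockout left, wild type right) and lists in rows; the number of measured genes is in brackets. The acinar factors run from -0.66 on knockout array 1 to 0.39 on knockout array 3, and leukocyte markers run the opposite way, at 0.59 and -0.53.

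The mean profile of the 10 factors, each value taken as the deviation from the gene's own mean, was -0.65, 0.28 and 0.36 on the knockout arrays, against -0.11, 0.07 and 0.05 on the wild-type arrays. Gata6 lay nearest to this mean profile among the factors, with a mean absolute gap of 0.035 log2 units over the 6 arrays. Rbpjl lay farthest from the profile, at 0.236. It was compared with 9462 other genes with a level above the median gene. Genes with predicted (Gm), RIKEN, microRNA, olfactory or vomeronasal receptor and ribosomal protein names were left out. The 8 with the smallest gaps were Cyb5r3, Mmut, Hid1, Sh2d4a, Wwc1, Mgll, Otud6b and Pccb, at 0.021 to 0.04. Cyb5r3, a cytochrome b5 reductase, had 10.01, 10.93 and 11.02 in knockout, against 10.52, 10.78 and 10.73 in wild type. Mmut and Pccb encode mitochondrial enzymes of propionate metabolism and Mgll a monoacylglycerol lipase. These 8 were chosen for likeness, so their values are a description.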

How the data were processed

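The values, as deposited by the authors, are log2 expression with 1 column per array. RMA and Partek are named in the submitters' processing notes, with no versions. RMA corrects background, normalizes arrays and summarises probes. The genome build behind the rows is not given in the sources used here. Array medians over 115830 rows ran from 4.08 to 4.25; detection calls, slide and scan date were not used here, and the number of arrays limits precision.

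In the platform annotation 25539 rows had 1 symbol, 2300 several and 87991 none. Gene numbers of 24941 rows matched RefSeq (GRCm38.p6). Each of 20259 genes was represented by its row with the highest mean. Differences (knockout minus wild type) were fitted with lmFit and eBayes of limma 3.58.1 (R 4.3.3) over all genes and adjusted by the Benjamini-Hochberg method; the fit was tested on simulated data. Single genes also had an exact permutation test. The labels do not state that the replicate numbers pair the arrays, and the main fit did not pair them. Correlations of same-numbered deviations across genes were 0.041, 0.138 and -0.153, which cannot settle whether samples were paired.

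The 10 genes and all lists were chosen with earlier results of these data known. Named genes were the 10 factors, Ctnnd1, up to 4 genes per list by smallest p, and the 8 most alike. Lists were PTF1 partners, enzymes, granule genes, endoplasmic reticulum genes, other pancreatic factors, and duct, leukocyte, fibroblast, endothelial, islet and erythroid markers. Alternatives were other scalings, filters, row choice, variance trend, array weights, a replicate block, a leukocyte covariate and each array left out.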

Additional observations from a re-analysis of the deposited data

How the results depend on the processing

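With 10 factors, 0 passed limma's adjusted threshold under every alternative except array weights, which called 3 (Gata4, Nr5a2 and Xbp1) and 4797 of all genes (23.7%, against 0 with equal weights). The weighting did not converge and put a weight of 8.57 on knockout array 2 and 0.142 on knockout array 1. Over the fits that left out 1 array, the count of factors was 0 in each, the count of all genes ran from 0 to 2, and the median difference of the factors ran from -0.137 to 0.335.

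Of 149 values of single factors under the alternatives, 26 had the opposite sign to the fit with all arrays, 3 passed the threshold where that fit did not, and 120 kept both sign and side. A further quantile normalization gave Bhlha15 0.06 and Rbpjl 0.006. Shifting arrays to 1 median gave Creb3l2 -0.078 and Gata6 -0.036, and moved the median of all genes from 0.055 to -0.029. Array weights gave Bhlha15 0.259, Ptf1a 0.186 and Rbpjl 0.355. The leukocyte covariate gave Creb3l2 -0.066, Foxp2 -0.11, Gata4 -0.379, Gata6 -0.255 and Nr5a2 -0.203. Leaving out arrays gave a range of -0.388 to 0.333 for Bhlha15, -0.094 to 0.078 for Creb3l2, -0.001 to 0.337 for Foxp2, -0.146 to 0.635 for Gata4, -0.128 to 0.347 for Gata6, -0.472 to 0.014 for Nr0b2, -0.02 to 0.492 for Nr5a2, -0.394 to 0.315 for Ptf1a and -0.486 to 0.347 for Rbpjl. Xbp1 kept its sign under every alternative run. The causes were not tested. With a replicate block the median difference was 0.027 and 0 factors were called, as without it. The block used numbers that are not stated to pair the arrays. The filter on genes above the median left 9 factors, without Foxp2.

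Knockout array 1 was lowest for 8 factors as deposited (29.5% of all genes), 9 after quantile normalization (33.2%) and 8 after shifting medians (30.9%). Arrays 2 and 3 lay above wild type for 8 (34.2%), 8 (30.9%) and 6 (20.2%). Signal over background could not be judged for the dim Foxp2 row.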

Other observations

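Markers of other cells of the pancreas were, like the acinar factors, often lowest on knockout array 1: 10 of 16 fibroblast, 8 of 13 islet, 5 of 12 endothelial, 9 of 18 duct and 2 of 4 erythroid genes, against 8 of the 10 factors and 29.5% of all genes. Of these lists 0 genes passed limma's adjusted threshold with all arrays. Over all 20259 genes 61.7% were higher in knockout, and 467 were higher and 241 lower at an unadjusted p under 0.05. Fibroblast and stellate cell markers, 16 measured, averaged 5.95, 6.37 and 6.20 on knockout arrays 1 to 3, against 6.15, 7.03 and 6.42 on the wild-type arrays, and 14 of the 16 were lower in knockout. Wild-type array 2 was the high one. At an unadjusted p under 0.05 there were 2, both lower, Thy1 at -0.44 and the matrix gene Postn at -0.98, followed by Lum at -0.66 and, in the other direction, the actin gene Acta2 at 0.33. Erythroid markers, 4 measured, averaged 5.10, 6.05 and 5.79 in knockout, against 5.71, 6.08 and 7.55 in wild type, with wild-type array 3 high. Car1 was at -1.46 with all arrays and at -0.34 without wild-type array 3. Slc4a1 was at -0.80 and at -0.08 without that array, and Tfrc at -0.35 and -0.13. Alas2 was at -0.60, and at 0.06 without knockout array 1.

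Islet markers, 13 measured, had 5 higher and 8 lower in knockout, 2 of them lower at an unadjusted p under 0.05. For these lists too, the shares over all 20259 genes were 61.7% higher, and 467 higher and 241 lower at that level. Gcg, the glucagon gene, had 4.85, 5.26 and 5.48 in knockout, against 5.75, 6.55 and 6.72 in wild type, so the groups did not overlap, with a difference of -1.14 (SE 0.28, limma adjusted p = 0.907). Sst, the somatostatin gene, had 7.40, 7.56 and 7.67 in knockout, against 8.51, 7.79 and 8.0 in wild type, also without overlap. The groups failed to overlap for 8.69% of all genes in either direction. Scg5 and Chga were at 0.29 and -0.32. Endothelial markers, 12 measured, had 7 higher and 5 lower, with Cldn5 at 0.28, Vwf at 0.22, Plvap at 0.18 and Tie1 at 0.16. Duct and metaplasia markers, 18 measured, had 10 higher and 8 lower, 2 of them higher at an unadjusted p under 0.05, the claudin gene Cldn18 at 0.62 and Wfdc2 at 0.41. Car2 was at -0.84, and at -0.33 without wild-type array 3, the high one. Cftr, the duct chloride channel, was at -0.44, and ran between -0.71 and -0.26 when single arrays were left out. Other genes named here also moved by over 1.5 times when 1 array was left out: Plvap ran between 0.04 and 0.45, Tie1 between 0.07 and 0.29, Lum between -0.91 and -0.37, Acta2 between 0.19 and 0.46, Postn between -1.45 and -0.61, Chga between -0.50 and -0.17, Sst between -0.71 and -0.36 and Wfdc2 between 0.27 and 0.54.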
